A study of Mus musculus with 2 samples.

Results

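The genes described here are 10 transcription factors of the hair lineage, Cux1, Nfatc1, Vdr, Gata3, Foxn1, Lhx2, Trps1, Ovol1, Prdm1 and Satb1, out of 21883 protein-coding mouse genes placed on the chromosomes. They were named by symbol, and chromatin contacts were assigned to them by position. A contact belonged to a gene where either of its anchor bins lay within 10 kb of either annotated end of the gene in GRCm38. Of the 10 genes, 6 had such a contact in at least 1 of the libraries, beside 28.3% of all 21883 genes, and Gata3, Trps1, Prdm1 and Satb1 had none.

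The contacts come from Hi-C, in which fixed chromatin is cut, neighbouring ends are re-ligated and the joined fragments are sequenced. It was run on sorted hair matrix keratinocytes, the proliferating epithelium of the follicle bulb, of mice at postnatal day 4.5. There was 1 library of genotype WT and 1 of genotype Tet2/Tet3 DKO with Krt14-Cre, here DKO, in which the DNA dioxygenases TET2 and TET3 are deleted in cells that have expressed the keratin 14 promoter. Whether the WT mice carried the Cre, and how many mice each library holds, is not given in the sources used here. Contacts do not measure transcripts, so neither the cell type nor the deletion could be checked.

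Hair matrix cells become inner root sheath or hair shaft cells under a set of lineage transcription factors. GATA3 and CUX1 are known from the sheath, FOXN1 from the keratinising hair shaft, and LHX2 and NFATC1 from follicle progenitors and stem cells. A chromatin loop brings 2 distant stretches of a chromosome together, often at sites held by CTCF and cohesin, and some loops connect a gene with its regulatory sequence. TET enzymes oxidise 5-methylcytosine, which in mammalian DNA lies mostly at CpG dinucleotides.

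The values are those of enriched pixels. Each pixel pairs 5 kb bins that had more contacts than the pixels around them. The WT list held 5811 pixels and the DKO list 4872, with a median of 18 observed contacts in each. At the 1940 pixels present in both lists, the DKO expected counts were a median 0.973 of the WT ones (quartiles 0.904 and 1.05). This describes only pixels called in both lists, and no count was scaled by it. Enrichment means observed contacts over those expected from a ring of surrounding pixels, called the donut. Its 95% interval is an exact Poisson interval of the observed count, which covers counting error only. With 1 library per genotype there was no replicate error, no test and no p-value, and a difference between the lists cannot be told apart from a difference between these libraries. A pixel missing from a list was not called there, and its contact count is not recorded.

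Annotated transcription starts were available for 7 of the 10 genes, and not for Nfatc1, Ovol1 and Trps1. Starts of 2 of the 7 fell inside a listed anchor bin, and the 250 bases before them are printed. Contacts are resolved to 5 kb bins, so which part of a bin they reach is not known. Anchor bins of both lists also held an end of Ovol1 and an end of Nfatc1, but the strand of these genes was not available. The Cux1 start lay in an anchor bin of both lists, and an internal start of Lhx2 in an anchor bin of the DKO list. The Foxn1 start is printed for contrast, since the nearest anchor bin lay 8.39 kb from it in both lists. The sequences are from RefSeq (GRCm38.p6), 5′ to 3′ on the strand of the gene, and capitals mark CpG dinucleotides.
Cux1, chr5:136565982-136566231, minus strand: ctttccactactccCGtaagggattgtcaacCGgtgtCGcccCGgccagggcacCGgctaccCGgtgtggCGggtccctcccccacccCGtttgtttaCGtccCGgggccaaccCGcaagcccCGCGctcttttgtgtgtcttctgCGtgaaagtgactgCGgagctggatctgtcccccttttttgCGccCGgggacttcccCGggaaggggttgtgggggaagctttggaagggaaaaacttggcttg
Lhx2 internal start, chr2:38351058-38351307, plus strand: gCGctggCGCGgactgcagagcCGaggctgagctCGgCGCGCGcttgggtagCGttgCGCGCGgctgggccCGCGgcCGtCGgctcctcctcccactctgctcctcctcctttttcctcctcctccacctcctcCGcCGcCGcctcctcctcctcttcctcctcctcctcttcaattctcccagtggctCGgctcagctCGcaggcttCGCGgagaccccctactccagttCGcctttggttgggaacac
Foxn1, chr11:78386609-78386858, minus strand: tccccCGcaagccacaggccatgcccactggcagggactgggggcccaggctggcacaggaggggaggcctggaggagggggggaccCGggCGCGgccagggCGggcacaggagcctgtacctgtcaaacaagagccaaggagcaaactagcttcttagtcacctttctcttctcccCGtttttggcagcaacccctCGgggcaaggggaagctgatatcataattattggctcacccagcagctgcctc

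These windows held 18 CpG dinucleotides at Cux1, 24 at the internal start of Lhx2 and 7 at Foxn1, against a median of 6 (quartiles 2 and 16) over the 32851 RefSeq promoter windows of the same length. At least as many CpG dinucleotides were found in 21.7% of all windows for Cux1, in 11.98% for Lhx2 and in 46.3% for Foxn1. The Cux1 and Lhx2 windows were therefore above the upper quartile of promoters by CpG number, and the Foxn1 window was near the middle. Other starts in no anchor bin also held many, with 19 at Gata3, 25 at the other Lhx2 start and 41 at a Satb1 start. Fewer were found at Prdm1 (15), Vdr (11) and the remaining Satb1 starts (3 to 12). A link between CpG number and contact was not tested. Of the 10 genes, 7 matched the promoter table.

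Of the 10 genes, 5 had a pixel in WT and 5 in DKO, beside 21.2% and 20.1% of all protein-coding genes. Pixels in both lists were found at Cux1, Foxn1, Ovol1 and Nfatc1, which makes 4 of 10, beside 12.9% of all genes. Lhx2 had a pixel only in WT, beside 8.23% of all genes, and Vdr only in DKO, beside 7.14%. The members had 18 WT pixels (Poisson interval 10.7 to 28.4) and 16 DKO pixels (9.15 to 26.0). These intervals take pixels as independent, although neighbouring ones can belong to the same loop. With a false discovery rate (FDR) under 0.01 against all 4 neighbourhoods, Cux1, Foxn1 and Ovol1 kept a pixel in each list and Nfatc1, Lhx2 and Vdr did not, where 10.8% (WT) and 9.51% (DKO) of all genes had one. The same 3 genes had a pixel of at least 20 contacts in each list, beside 10.6% and 9.48% of all genes. The pixels as deposited grouped into 7 loops in each list when pixels within 20 kb at both anchors were joined. Most of these pixels, 14 in WT and 14 in DKO, belonged to Cux1, Foxn1 and Ovol1, so any summary over the pixels mainly describes these genes.

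Most pixels at the hair lineage factors were short. Their spans had a median of 45 kb (WT) and 47.5 kb (DKO), while over all pixels it was 115 kb and 100 kb. Spans of 35 to 60 kb made up 14 of the 18 WT pixels and 13 of the 16 DKO pixels. The other 4 WT and 3 DKO pixels spanned over 100 kb, and every pixel of Nfatc1, Lhx2 and Vdr was among them. The short spans thus describe Cux1, Foxn1 and Ovol1, which hold most of the pixels. The lowest span in either whole list was also 35 kb, so nothing shorter could be seen. Median enrichment was 4.25 times expected in WT (quartiles 3.69 and 4.54) and 4.09 in DKO (3.30 and 4.97), below the 5.11 and 4.95 of all pixels. Observed counts ran from 12 to 36 with a median of 25 in WT, and from 15 to 41 with a median of 25 in DKO.

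**Figure D1:**
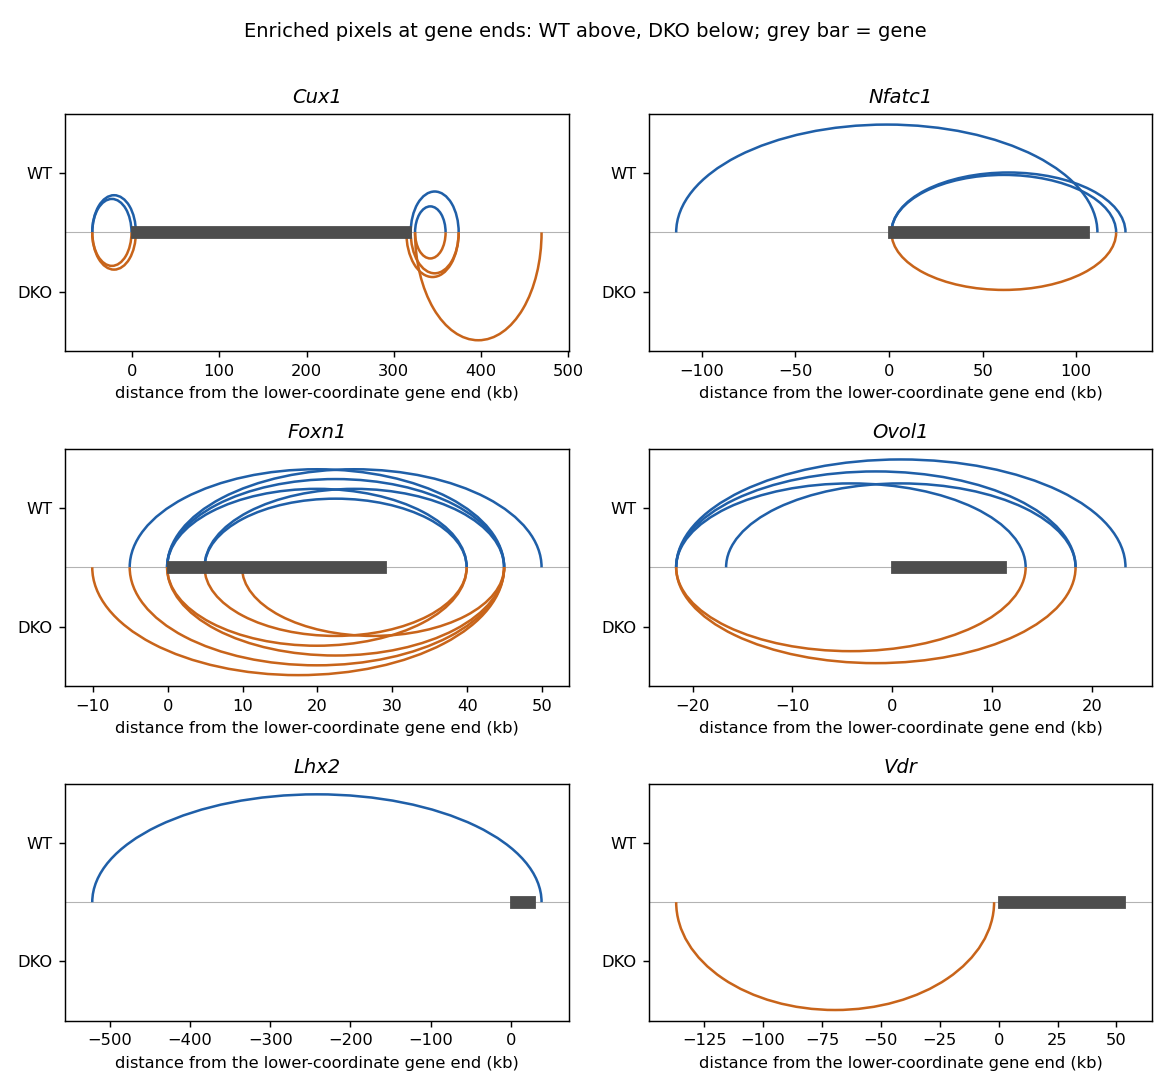
Each arc joins the 2 anchor bins of a pixel at Cux1, Nfatc1, Foxn1, Ovol1, Lhx2 or Vdr, drawn above the line for WT and below it for DKO. The horizontal axis is the distance in kb from the gene end of lower coordinate, the grey bar is the gene, and arc height scales with span within a panel. All arcs of Ovol1 and 4 of the 6 Foxn1 arcs in each list pass over the gene, those of Cux1 leave it at both ends, and Lhx2 and Vdr have an arc in 1 list only.

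Cux1 encodes a homeodomain protein that represses transcription and is expressed in the inner root sheath. The gene is 319.5 kb long on chromosome 5 (136248135 to 136567590, minus strand), and contacts were listed at each of its ends. At its 3′ end, bins chr5:136245001-136250000 and chr5:136250001-136255000 both met the bin chr5:136200001-136205000, 43.1 kb beyond the gene and within 10 kb of an end of Prkrip1. The 50 kb pixel had 29 contacts in WT and 21 in DKO. Its enrichment was 5.97 (3.996 to 8.57) and 5.69 (3.52 to 8.70), the highest within 10 kb of an end of Cux1 in each list. The neighbouring 45 kb pixel had 22 and 17 contacts at 4.15 and 4.08 times expected. Observed and expected counts were both lower in DKO at this end, with donut expected counts of 4.86 and 3.69 at the 50 kb pixel, so the enrichment was nearly the same. An end of Sh2b2, which encodes a signalling adaptor, also lay within 10 kb of the anchor, so these pixels cannot be assigned to Cux1 alone.

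At the 5′ end the Cux1 start shown above lay in the bin chr5:136565001-136570000, which met chr5:136620001-136625000, 52.4 kb upstream of the gene. This pixel had 35 contacts in WT at 3.73 times expected (2.60 to 5.19) and 28 in DKO at 3.36 (2.23 to 4.85). The next bin, chr5:136570001-136575000, met a bin 37.4 kb upstream with 31 contacts in WT (3.16 times expected) and 27 in DKO (2.66). No protein-coding gene had an end within 10 kb of these partner bins, and the nearest annotated partner was the long non-coding RNA gene Gm38722, within 10 kb of the farther one. The DKO list had 2 further pixels at the 5′ end. A 60 kb pixel of 19 contacts matched the WT pixel within 2 bins. A 145 kb pixel of 15 contacts (4.10 times expected, 2.29 to 6.76) reached 147.4 kb upstream and had no WT pixel within 2 bins. The highest of its 4 FDRs was 0.0869, and the lowest count listed in either library at this class of expected counts was 13.

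Foxn1 encodes the forkhead factor that is mutated in nude mice and drives keratinisation of the hair shaft. It had the densest group of contacts, with 6 pixels in each list forming 1 loop in each. The gene lies on chromosome 11 (78357577 to 78386783, minus strand), and the gene-side anchors ran over its 3′ end, from 78350001 to 78365000 in WT and from 78345001 to 78370000 in DKO. All partner bins lay upstream of the Foxn1 start, between 78395001 and 78410000, and overlapped Slc13a2, which encodes a sodium-coupled dicarboxylate transporter. Pixels that enclosed the whole gene numbered 4 in each list.

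The pixel of the 3′ end bin chr11:78355001-78360000 with chr11:78400001-78405000 had 36 contacts in WT and 36 in DKO. It stood at 5.48 times expected in WT (3.84 to 7.59) and 5.59 in DKO (3.91 to 7.74). The highest DKO count was at the 35 kb pixel from chr11:78360001-78365000 to chr11:78395001-78400000, with 41 contacts at 5.34 times expected (3.83 to 7.24) against 31 in WT at 4.501 (3.06 to 6.39). The 40 kb pixel between the bins starting at 78355001 and 78395001 had 29 contacts in WT and 33 in DKO, at 4.55 and 5.21 times expected. The libraries thus placed the centre of the loop within a bin of each other, and the pixels listed in only 1 of them lay at its rim or next to its centre. Among these, the WT pixel from 78360001 to 78400001 had 34 contacts and the DKO pixel from 78365001 to 78400001 had 27. Ends of Unc119 or Pigs lay within 10 kb of some of the same anchors.

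Gata3, the zinc finger factor that specifies the inner root sheath, had no pixel within 10 kb of its ends in either list. It lies on chromosome 2 (9857078 to 9887953), and the nearest anchor was 117.0 kb away in WT and 122.0 kb away in DKO. In both lists this anchor belonged to a contact that passed over Gata3 from the bin starting at 8670001, over 1335 kb in WT (12 contacts, 6.86 times expected) and 1340 kb in DKO (15 contacts, 6.24 times). The median distance from a protein-coding gene to the nearest anchor was 98.0 kb (WT) and 116.4 kb (DKO), so Gata3 was near the middle of all genes.

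Nfatc1, a calcium-regulated factor that keeps follicle stem cells quiescent, had 3 WT pixels and 1 DKO pixel on chromosome 18 (gene at 80606205 to 80713071). The pixel present in both lists joined the bin chr18:80605001-80610000, which holds the gene end of lower coordinate, with chr18:80725001-80730000, 11.9 kb beyond the other end and within 10 kb of an end of Atp9b, a P-type ATPase gene. It had 19 contacts in WT at 3.90 times expected (2.35 to 6.09) and 19 in DKO at 4.81 (2.90 to 7.51). The same counts gave a higher enrichment in DKO because the expected count was 3.95 there and 4.87 in WT. A neighbouring 125 kb pixel was listed in WT alone, with 15 contacts. Within 20 kb of a gene end Nfatc1 had 8 WT and 6 DKO pixels, so the counts depend on the distance chosen.

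The third WT pixel at Nfatc1, of 225 kb and 15 contacts (6.12 times expected, 3.43 to 10.1), was the edge of a loop of 7 WT pixels that passes over the gene. The same partner bin, starting at 80490001, met the bin starting at 80730001 at Atp9b in both lists, with 26 contacts in WT at 11.3 times expected and 18 in DKO at 7.97. Ctdp1, which encodes a phosphatase of RNA polymerase II, had an end within 10 kb of the neighbouring bin starting at 80485001, which met the bin starting at 80725001 in both lists. Over the chromosome, 9 WT and 7 DKO pixels enclosed Nfatc1.

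Lhx2, a LIM homeodomain factor of follicle progenitors, showed different pixels in the 2 lists. The gene lies on chromosome 2 (38339271 to 38369737, plus strand). In WT a single pixel joined chr2:38375001-38380000, 5.26 kb past its 3′ end, with chr2:37815001-37820000, inside Dennd1a and 560 kb away. It had 12 contacts on a donut expected count of 1.62, an enrichment of 7.42 (3.84 to 13.0), and a highest FDR of 0.0380. The lowest count listed at this class of expected counts was 11 in both libraries. In DKO no pixel met the 10 kb rule, but 1 lay just outside it, with an anchor 10.7 kb from the nearer gene end. This DKO pixel joined chr2:38350001-38355000, which holds the internal Lhx2 start shown above, with chr2:38285001-38290000 at the 5′ end of Dennd1a. It spanned 65 kb with 17 contacts, 4.35 times expected (2.53 to 6.97), at a highest FDR of 0.00235. Each of these pixels had no counterpart within 2 bins in the other list. Dennd1a encodes a regulator of membrane traffic, and both partner bins lay in this neighbour. The WT anchor on the Lhx2 side lay past the 3′ end of the gene, and the DKO anchor lay inside it.

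**Figure D2:**
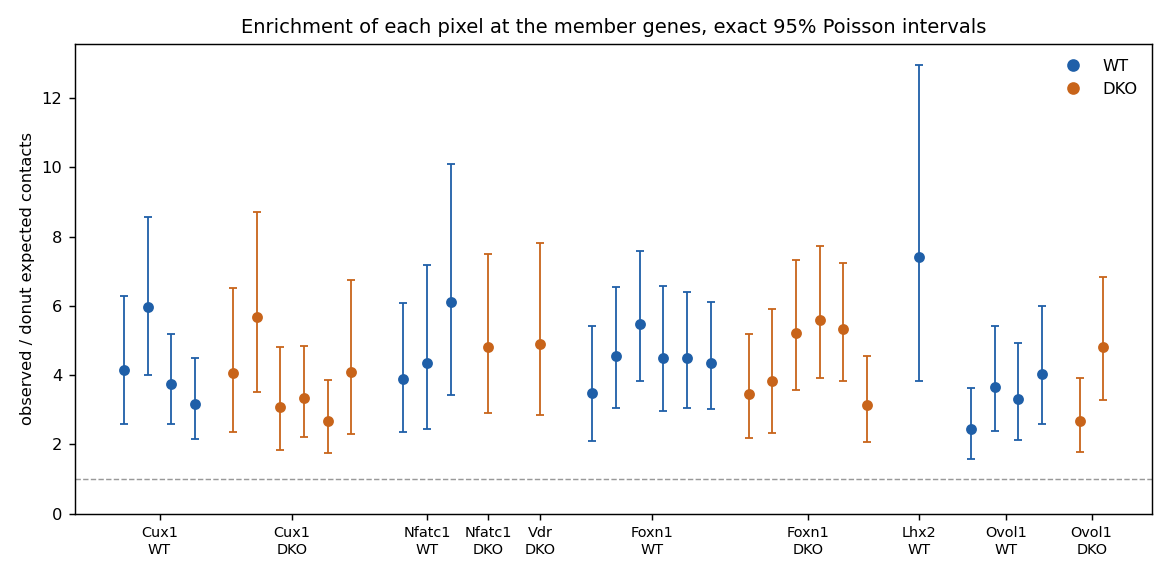
Enrichment (observed over donut expected contacts, vertical axis) of every pixel at the 6 genes with a pixel, by gene and library, ordered by the position of the gene-side anchor. Points are single pixels and bars exact 95% Poisson intervals. Values ran from 2.45 to 7.42 in WT and from 2.66 to 5.69 in DKO, and the highest was the 560 kb WT pixel at Lhx2.

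Ovol1 encodes a zinc finger factor that acts downstream of WNT signalling and restrains the growth of hair and epidermal precursor cells. The gene is short, 11.4 kb on chromosome 19 (5549137 to 5560575), and all its pixels passed over it. The bins chr19:5560001-5565000 and chr19:5565001-5570000 on the side of higher coordinate met chr19:5525001-5530000, 19.1 kb beyond the other end, in both lists. The 40 kb pixel had 25 contacts in WT at 3.67 times expected (2.38 to 5.42) and 31 in DKO at 4.81 (3.27 to 6.83). The 35 kb pixel had 25 and 27 contacts at 2.45 and 2.68 times expected, and 25 was the lowest count listed in either library at its class of expected counts. WT had 2 more pixels of 24 contacts each, at 4.02 and 3.31 times expected, which lay within 2 bins of DKO pixels. No protein-coding gene had an end within 10 kb of the partner bins. Ap5b1, an adaptor subunit gene, overlaps the higher end of Ovol1, and every pixel of Ovol1 was also within 10 kb of an end of Ap5b1.

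Vdr encodes the vitamin D receptor, a nuclear receptor needed for hair cycling. It had 1 DKO pixel and no WT pixel on chromosome 15 (gene at 97854427 to 97908296, minus strand). The bin chr15:97850001-97855000, which holds the 3′ end of Vdr, met chr15:97715001-97720000, 134.4 kb away. That partner bin lay inside Endou and within 10 kb of an end of Rpap3. The pixel had 17 contacts at 4.89 times expected (2.85 to 7.83), and the highest of its FDRs was 0.0839. The lowest count listed at this class of expected counts was 13 in each library. The Endou bin had other contacts in both lists, with bins at Hdac7, a histone deacetylase gene beside Vdr, and Slc48a1. Of these, the pixel with 97780001 had 29 contacts in WT (4.61 times expected) and 20 in DKO (3.42), and the one with 97790001 had 26 (3.93) and 31 (5.43). An end of Hdac7 also lay within 10 kb of the Vdr anchor. The nearest WT anchor to Vdr was 59.4 kb away.

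Trps1, Prdm1 and Satb1 had no pixel within 10 kb of an end, nor an anchor inside the gene, in either list. TRPS1 is a GATA-type repressor mutated in a human syndrome with sparse hair, PRDM1 a repressor of several differentiation programmes in skin, and SATB1 an organiser of chromatin at AT-rich DNA. Satb1, on chromosome 17 (51736187 to 51833290), was the most isolated, with the nearest anchor 3136 kb away in WT and 3866 kb away in DKO. Only 5.12% of protein-coding genes were as far from an anchor in WT and 4.08% in DKO. Trps1, on chromosome 15 (50654757 to 50890631), was 1019 kb from an anchor in both lists, and 14.6% of genes in WT and 15.4% in DKO were at least as far. Prdm1, on chromosome 10 (44437174 to 44528558), was 107.2 kb from an anchor in WT and 362.2 kb in DKO. The WT anchor belonged to a 720 kb contact of 17 contacts that passed over Prdm1, at 6.54 times expected.

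The side of the gene at which contacts were listed could be read for the genes with a strand in the promoter table. By the anchor nearer to the gene, 9 WT pixels lay at an annotated 3′ end and 2 at a 5′ end, and in DKO 9 and 4, with 7 and 3 pixels at genes without a strand there. The 5′ pixels of this count belonged to Cux1. At Foxn1, 2 WT and 2 DKO pixels counted at the 3′ end also had their partner bin within 10 kb of the 5′ end, at 8.22 kb. A gene end lay inside the anchor bin itself at 8 WT and 7 DKO pixels. Another protein-coding gene also had an end within 10 kb of the gene-side anchor at 10 WT and 9 DKO pixels, as named above for Cux1, Foxn1, Ovol1 and Vdr.

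Of the 18 WT pixels, 17 had a DKO pixel within 2 bins at both anchors, which is 94.4% (72.7 to 99.9), against 67.6% of all WT pixels. Of the 16 DKO pixels 14 had a WT pixel within 2 bins, which is 87.5% (61.7 to 98.4), against 70.5% of all DKO pixels. These intervals treat pixels as independent, which those of 1 loop are not. Counted by loop, 1 of the 7 WT loops and 2 of the 7 DKO loops had no counterpart. The shares over pixels thus weigh loops of several pixels most, and no share by loop was computed over the whole lists. Member pixels also had more contacts, with a median of 25 in each list against 18 over all pixels. The pixels without a counterpart were the 560 kb pixel of Lhx2 in WT and the 145 kb pixel of Cux1 and the 135 kb pixel of Vdr in DKO. All 3 were loops of a single pixel, had 12 to 17 contacts and a highest FDR over 0.01.

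At the 11 pixels listed in both libraries, enrichment was compared directly. The DKO/WT ratio ran from 0.842 to 1.31, and every interval included 1. The median log2 ratio was 0.13, against −0.02 (quartiles −0.25 and 0.20) over all 1940 pixels listed in both. All 4 Cux1 pixels had a ratio under 1, from 0.842 (0.484 to 1.46) to 0.983 (0.490 to 1.94). All 4 Foxn1 pixels were above 1, from 1.02 (0.624 to 1.66) to 1.19 (0.725 to 1.96), as were both Ovol1 pixels, at 1.09 (0.611 to 1.97) and 1.31 (0.749 to 2.32), and the Nfatc1 pixel at 1.23 (0.618 to 2.46). These directions are for the donut and did not all hold for the other neighbourhoods. Over the vertical expected count, every shared Cux1 pixel but the 50 kb one was higher in DKO. The 45 kb Foxn1 pixel was lower in DKO over the horizontal and bottom-left expected counts. Summed over its shared pixels, Cux1 had 117 WT and 93 DKO contacts, an enrichment ratio of 0.885 (0.667 to 1.17). Foxn1 had 115 and 130, a ratio of 1.11 (0.859 to 1.44), and Ovol1 50 and 58, a ratio of 1.20 (0.805 to 1.78). Over all 11 pixels the sums were 301 and 300 contacts, a ratio of 1.05 (0.893 to 1.24). The shared Foxn1 pixels belong to 1 loop, as do those of Ovol1, and those of Cux1 belong to 2 loops in WT. Pixels of 1 loop are not replicates, so a shared direction within a gene is not repeated evidence. The intervals of the sums cover counting error only. At these pixels no difference between the libraries was detectable at these counts, and the intervals allow a change in either direction. Pixels had to be called in both lists to enter, so those listed in 1 library, at Lhx2, Vdr and Cux1 among others, are left out, and ratios near 1 are partly set by this choice.

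**Figure D3:**
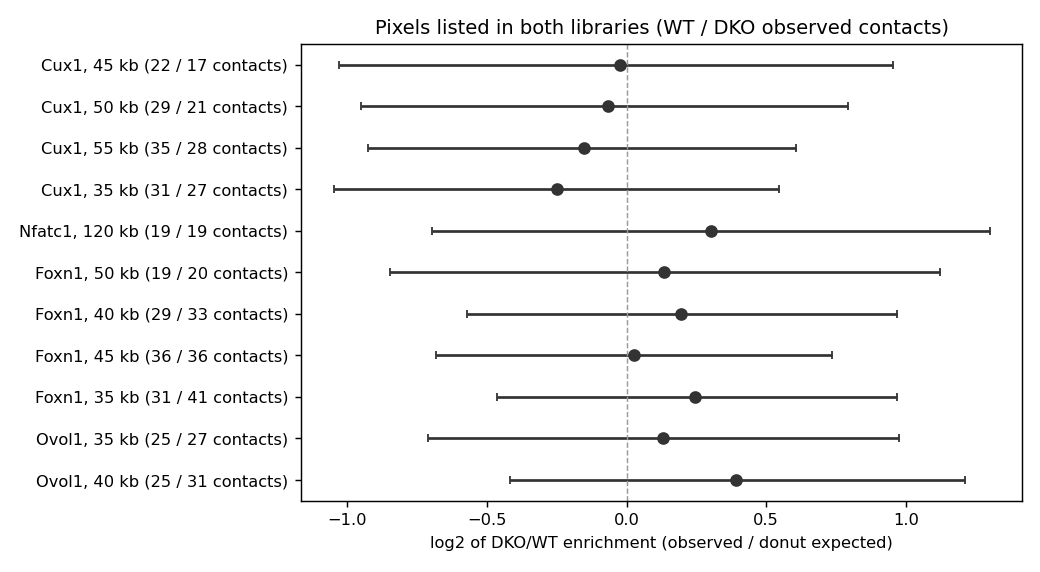
The log2 ratio of DKO to WT enrichment (horizontal axis) at the 11 pixels listed in both libraries, with gene, span and the observed WT and DKO contacts at the left. Bars are exact conditional binomial 95% intervals with the expected counts taken as fixed. With the donut expected count used here, the Cux1 points lie below 0 and the others above it, and every bar crosses 0.

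Of 40 other transcription factors and coregulators of the hair follicle, 17 had a WT pixel and 13 a DKO pixel, 42.5% and 32.5%, where all genes had 21.2% and 20.1%. Pixels in both lists were found at 9 of them, which is 22.5%, beside 12.9% of all genes. In WT alone they were found at 8 (20%, beside 8.23%) and in DKO alone at 4 (10%, beside 7.14%). The genes with most pixels were Dlx3, Id3 and, with equal numbers, Hes1 and Msx2. Dlx3, a homeobox gene of the hair matrix, had 10 WT and 7 DKO pixels. The highest in WT spanned 135 kb with 31 contacts (6.24 times expected, 4.24 to 8.85). The highest in DKO was a different pixel, of 110 kb and 30 contacts (4.46 times expected, 3.01 to 6.37). Id3, an inhibitor of basic helix-loop-helix factors, had 5 pixels in each list, and Hes1, a NOTCH target, 5 and 4. The highest Hes1 pixel spanned 330 kb in WT and 340 kb in DKO. Msx2, a homeobox gene of the matrix, had as many pixels as Hes1, 5 and 4, and its highest pixel spanned 60 kb in WT (29 contacts, 4.22 times expected) and 70 kb in DKO (33 contacts, 5.23 times).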

How the data were processed

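Hi-C contacts were measured in 1 WT and 1 DKO library. The authors' lists come from juicer_tools 1.22.01, per the file headers. Juicer and GRCm38 (mm10) are named as tool and build, per the submitters' processing notes. The sources used here give no aligner, read filters or sequencing depth. The authors deposited, for each pixel, the observed contact count without normalisation. The expected counts of 4 neighbourhoods were deposited as a signal in units of contacts, with a score that numbers their class. The deposited q-values, 1 FDR per neighbourhood, were all under 0.1.

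From these, pixels were assigned to genes with RefSeq gene ends (GRCm38.p6), and matched between lists within 2 bins (10 kb) at both anchors. Intervals are exact 95% intervals, Poisson for counts, Clopper-Pearson for shares and conditional binomial for ratios. Bins are given with 1-based coordinates. Python 3.11.15, pandas 2.3.3 and scipy 1.17.1 were used, and the assignment and matching were tested on simulated data.

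The members, the list of other factors and the settings were chosen with earlier results of these data known. All 10 members are described. Genes named at partner bins are protein-coding genes with an end within 10 kb or whose body holds the bin, and the 3 other factors with most pixels are named, with Msx2, which ties with Hes1. Alternatives were other distances to the gene end, gene bodies, an FDR under 0.01, minimum counts, other expected counts and other matching distances.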

Additional observations from a re-analysis of the deposited data

How the results depend on the processing

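No paired analysis was possible because there is only 1 library of each genotype, and leaving out a replicate was impossible for the same reason. At an FDR under 0.01 in all 4 neighbourhoods, or with at least 20 contacts, 3 members had a pixel in each list, Cux1, Foxn1 and Ovol1, so that Nfatc1, Lhx2 and Vdr rest on weaker pixels. The stricter FDR left 11 WT and 7 DKO pixels, and a gene end inside the anchor bin left 8 and 7. The share of WT pixels matched was 100% with gene ends inside the bin, within 5 kb or with at least 20 contacts, 61.1% at the same 2 bins and 81.8% at the stricter FDR. The share of DKO pixels matched was 100% at the stricter FDR or with at least 20 contacts, 68.8% at the same 2 bins and 77.8% with gene bodies. Median WT enrichment was 3.60 over the horizontal and 3.34 over the largest expected count. Of 95 recomputed values, 79 stayed inside the interval of the main value or, if counts, differed from it by at most 1.5 times. The median log2 DKO/WT ratio was between 0.04 and 0.29 over settings that largely share the same pixels. The interval of its main value ran from −0.15 to 0.30 and included 0. Medians were held to an order-statistic interval. Like the intervals of the shares, it treats pixels as independent, which those of 1 loop are not, so it does not measure the spread between loops. Within 20 kb of a gene end Lhx2 had a pixel in both lists. Counts of 12 to 41 contacts per pixel limit the precision of every ratio.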

Other observations

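Beyond the ends of Cux1, the DKO list held 1 pixel with an anchor inside the gene, at chr5:136260001-136265000. It reached chr5:136750001-136755000 in Col26a1, a collagen gene, over 490 kb, with 12 contacts at 6.87 times expected (3.55 to 11.995) and a highest FDR of 0.0417. No WT pixel lay within 2 bins of it. The upstream bin chr5:136620001-136625000, which met the bin holding the Cux1 start in both lists, also met chr5:136580001-136585000 in the DKO list. That pixel had 24 contacts at 3.25 times expected.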
